A study of Mus musculus with 2 samples.

Results

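The genes described here are 10 members of the NF-kB system of mouse cells, the transcription factor subunits and the inhibitors that hold them in check. They were taken as the non-control spots whose gene name in the scanner files equals Nfkbia, Nfkbib, Nfkbie, Nfkbiz, Nfkbid, Tnfaip3, Nfkb1, Nfkb2, Relb or Rel. These 10 genes, of 35019 distinct gene names on the array, had 15 probes on 16 spots. Several probes each were carried by 3 members (Nfkbib, Nfkb1 and Relb), and the other 7 had 1. All 10 members are accounted for below, and 9 of them were well above background on both arrays, the software's mark for a signal clear of the background noise; Rel was not on either array.

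Total RNA was measured from cells labelled GT1-7, an immortalised line from mouse hypothalamus, obtained from a tumour driven by a viral oncogene under the GnRH promoter. One group received gonadotropin-releasing hormone (GnRH) at 50 nM for 30 min, and the other received the vehicle DMSO for 30 min; the labels of the GnRH sample do not say whether it also held DMSO. Each group was 1 single-colour array (Cy3, probes of 60 nt), so no test was possible, no difference has a replicate check, and treatment, culture, labelling and array cannot be told apart. A free-text field of both samples names bradykinin and A549 cells, whereas all other labels name GT1-7, and the treatment labels were followed.

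NF-kB dimers are built from the subunits RelA, RelB, c-Rel and the processed products of Nfkb1 and Nfkb2. In resting cells the cytoplasmic inhibitors IkB-alpha, IkB-beta and IkB-epsilon (Nfkbia, Nfkbib, Nfkbie) mask the dimers, and signals that activate the IkB kinase complex cause these inhibitors to be ubiquitinated and degraded. Freed NF-kB induces many genes, among them several of its own inhibitors. The receptor for GnRH is a Gq-coupled receptor that activates phospholipase C, protein kinase C and MAP kinases.

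Of the 10 members, 7 matched a promoter in the RefSeq table (GRCm38.p6), all but Nfkbiz, Nfkb1 and Relb. The 12 windows of these 7 genes run from 250 bases before to 50 bases after an annotated start, and several starts of 1 gene were kept. Of the 7, 5 are shown because they hold the DNA motif that NF-kB binds and because their transcripts differed to unlike degrees between the arrays. For a gene with several windows, the one with the most kB matches was printed. The other windows of Nfkbid and Tnfaip3 held none. Each printed sequence is the 250 bases before the start, 5′ to 3′ on the gene's strand, with matches to the kB motif on either strand in capitals. Adjoining capitals in Nfkb2 are overlapping matches. The windows shown lie at chr7:30422156-30422405 (plus strand) for Nfkbid, chr12:55492648-55492897 (minus) for Nfkbia, chr10:19015411-19015660 (minus) for Tnfaip3, chr19:46304487-46304736 (plus) for Nfkb2 and chr17:45555450-45555699 (plus) for Nfkbie.
Nfkbid: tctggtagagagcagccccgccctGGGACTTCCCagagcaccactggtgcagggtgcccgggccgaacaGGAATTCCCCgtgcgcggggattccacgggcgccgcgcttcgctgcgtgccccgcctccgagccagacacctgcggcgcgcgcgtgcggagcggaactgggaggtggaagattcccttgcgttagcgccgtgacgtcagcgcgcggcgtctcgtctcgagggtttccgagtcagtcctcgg
Nfkbia: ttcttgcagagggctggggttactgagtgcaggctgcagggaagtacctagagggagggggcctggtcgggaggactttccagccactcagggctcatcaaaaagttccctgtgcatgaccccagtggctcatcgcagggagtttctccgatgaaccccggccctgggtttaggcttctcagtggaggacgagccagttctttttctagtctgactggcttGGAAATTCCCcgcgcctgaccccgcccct
Tnfaip3: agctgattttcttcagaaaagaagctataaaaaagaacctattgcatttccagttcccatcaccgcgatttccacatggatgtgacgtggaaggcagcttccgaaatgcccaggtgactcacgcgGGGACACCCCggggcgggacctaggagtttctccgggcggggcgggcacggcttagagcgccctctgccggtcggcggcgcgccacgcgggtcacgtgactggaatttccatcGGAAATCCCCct
Nfkb2: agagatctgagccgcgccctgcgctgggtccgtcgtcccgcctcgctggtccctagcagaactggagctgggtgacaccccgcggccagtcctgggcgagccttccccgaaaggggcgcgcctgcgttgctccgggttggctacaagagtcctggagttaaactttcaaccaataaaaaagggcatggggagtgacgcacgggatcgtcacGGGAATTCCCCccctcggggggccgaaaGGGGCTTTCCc
Nfkbie: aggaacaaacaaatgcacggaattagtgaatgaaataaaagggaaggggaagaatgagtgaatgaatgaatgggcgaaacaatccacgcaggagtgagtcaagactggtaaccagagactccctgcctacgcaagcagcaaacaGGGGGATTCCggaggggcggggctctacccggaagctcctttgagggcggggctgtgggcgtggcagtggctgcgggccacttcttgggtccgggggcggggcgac

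The kB motif was found in a window of 6 of the 7 matched members, the 5 shown and Rel, and in 8 of their 12 windows. Over all 32851 windows the share was 4.51%, and 5.14% of the 27025 genes had at least 1 window with a match. The Nfkbib window held none. The palindromic cAMP response element TGACGTCA, searched on both strands, was in 1 member window, that of Nfkbid, where it began at base -51 counted from the start, against 1.79% of all windows. The AP-1 motif, searched in the wide form TGANTCA, was in 3 member windows, those of Tnfaip3, Nfkbie and Nfkb2, against 7.81% of all windows. The Nfkb2 match read TGAATCA and lay in a window not printed here. The usual AP-1 motif has C or G at the open base. In Tnfaip3 the match began at -136, just before the kB match at -125. The CArG box, which serum response factor binds, was in no member window and in 1.63% of all. These matches describe letters in a window and not bound sites.

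The size of the difference varied across the members. The genes of 2 nuclear IkB proteins, Nfkbiz and Nfkbid, stood more than 1.5-fold higher in the GnRH array. Those of the feedback inhibitors Nfkbia and Tnfaip3 stood 1.37-fold and 1.33-fold higher. The cytoplasmic inhibitor genes Nfkbib and Nfkbie stood at 1.03-fold and 0.94-fold. The measured DNA-binding subunit genes stood at 1.05-fold to 1.09-fold on their brightest probes. These Nfkbib, Nfkbie and subunit values all lay within the error that the scanner software gave. The spread of repeated spots, a second gauge described below, was narrower, and all of these values but that of Nfkb1 exceeded it in size. Bcl3, a nuclear IkB gene outside the members, stood at 1.13-fold, also within that error. At a threshold of 2-fold no member was called, against 0.311% of the 21219 measured genes called higher and 0.132% called lower. At 1.5-fold, 2 of 9 measured members (22.2%) were higher, against 1.19% of all measured genes. None was lower by that much, against 0.881% of all measured genes. The members' median log2 difference was 0.13 and 8 of 9 lay above 0, while over all measured genes the median was -0.01 and 47.5% lay above 0. The members were chosen with earlier results of these data known, so these shares describe them and are no independent evidence. In such bulk RNA, a change in the number of cells of a type and in RNA per cell cannot be told apart.

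Each difference is GnRH minus vehicle on the log2 scale after both arrays were set to the same 75th percentile, which adds 0.09 to the plain log2 ratio of the signals. Each error joins the 2 errors that the scanner software gave; for bright spots it mostly reflects the software's fixed proportional error. A second gauge is the SD of single-spot log2 differences within probes printed many times on the array, taken here over the 50 such probes nearest in signal to the member. Both are technical and hold no variation between cultures. Signals of different probes are not compared as levels.

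**Figure D1:**
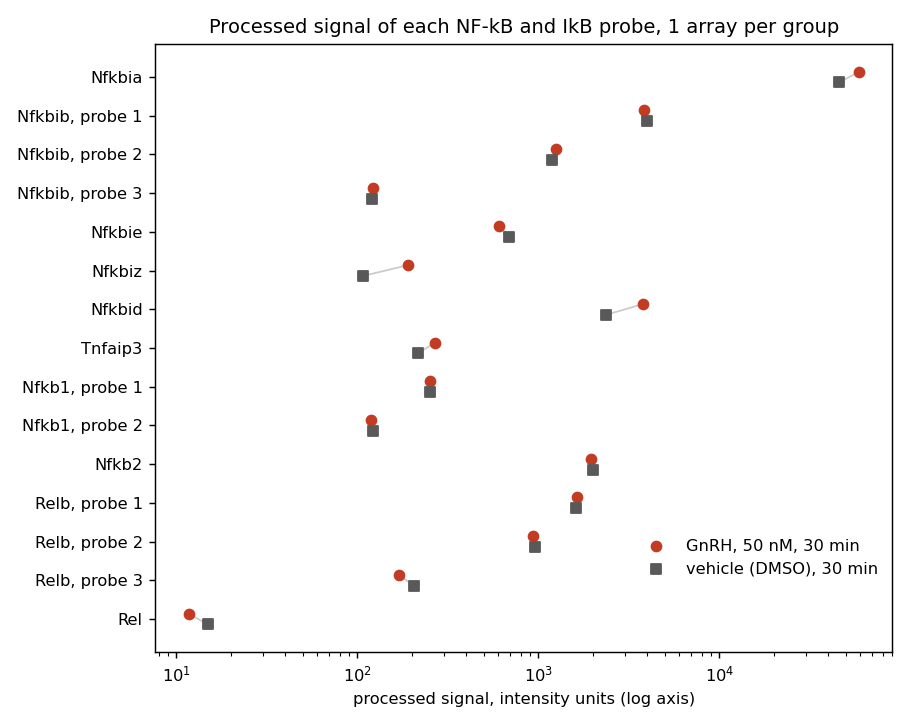
Processed signal (x axis, intensity units, log scale) of the 15 member probes on the GnRH array (red circles) and the vehicle array (grey squares), 1 array each; probes of 1 gene are numbered from the brightest. The circle lies furthest right of the square for Nfkbiz, Nfkbid, Nfkbia and Tnfaip3. Among measured probes it lies furthest left of the square for Relb probe 3 (169 with GnRH and 206 with vehicle) and Nfkbie. Both Rel signals lie below 15.

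Nfkbiz encodes IkB-zeta, a nuclear ankyrin-repeat protein that acts as a cofactor of NF-kB at selected secondary-response genes. Its processed signal was 190 in the GnRH array and 106.97 in the vehicle array. The log2 difference was 0.93 ± 0.21 (scanner error), a 1.90-fold higher value, and the SD of single-spot differences at this brightness was 0.14. This was the largest difference among the measured members, and it placed Nfkbiz at rank 72 of the 21219 measured genes counted from the highest. Before any background subtraction the spot's mean signal was 270 in the GnRH array and 183 in the vehicle array, over local backgrounds of 74 and 66. Background is thus a large part of this signal, and with normexp correction the difference was 0.63, or 0.66 with no correction, both still above 1.5-fold. The spots around it had a median difference of 0.03. The probe lies on chromosome 16 at 55817859 to 55817918 (mm9, minus strand).

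Nfkbid encodes IkB-delta, also called IkBNS, a second inducible nuclear IkB protein that regulates cytokine genes in immune cells. Its signal was 3808 in the GnRH array and 2376 in the vehicle array. The log2 difference was 0.78 ± 0.20, a 1.71-fold higher value, against a single-spot SD of 0.04 at this brightness. At rank 106 of all measured genes, it stood near Nfkbiz, and it ran from 0.74 to 0.79 over the 14 settings. The spots around it had a median difference of 0.02. Its probe lies on chromosome 7 at 31213705 to 31213764 (mm9, plus strand). The promoter window printed above for it is the only one of the 12 that held both a kB match and the palindromic cAMP response element.

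**Figure D2:**
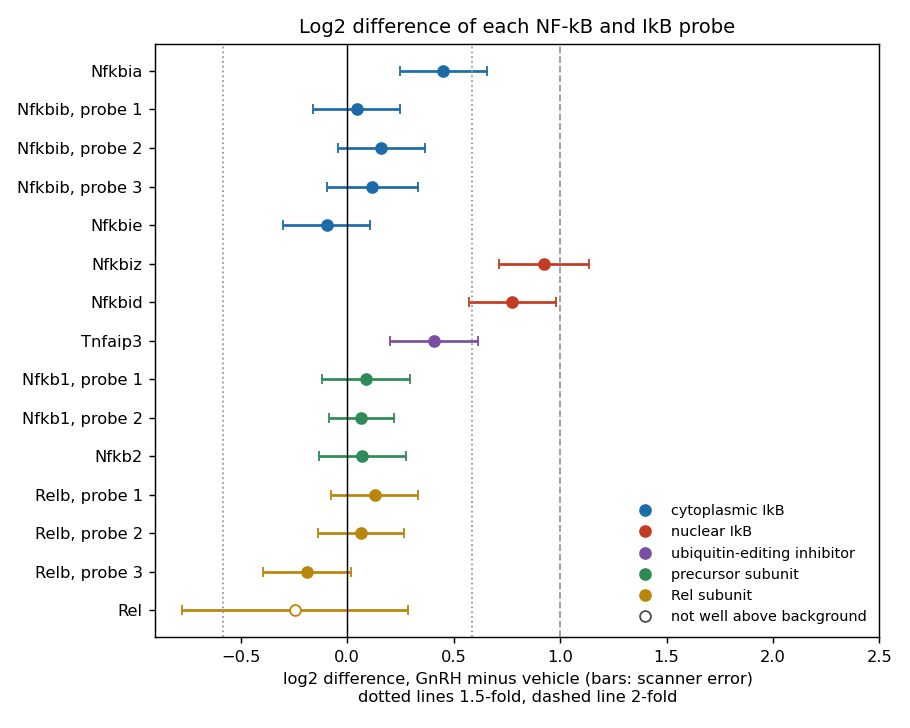
Log2 difference, GnRH minus vehicle (x axis), of each of the 15 member probes, with the scanner error as bars and colours for the members' roles; the open circle is not well above background. The probes of Nfkbiz (0.93) and Nfkbid (0.78) lie beyond the dotted line at 1.5-fold, those of Nfkbia (0.45) and Tnfaip3 (0.41) lie between it and 0, and the bars of all other probes cross 0.

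Among the cytoplasmic inhibitors, only Nfkbia differed by more than its scanner error. Nfkbia, the gene of IkB-alpha, is the textbook negative-feedback target of NF-kB and the inhibitor that is resynthesised fastest. Its signal was 59015 in the GnRH array and 46055 in the vehicle array. The log2 difference was 0.45 ± 0.20, a 1.37-fold higher value that did not reach 1.5-fold, while the single-spot SD at this brightness was 0.04. Its 60-nt probe has coordinates that span 496 bases on chromosome 12, 56590945 to 56591440 (mm9, minus strand). The spots around it had a median difference of -0.16, opposite in sign to its own.

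Nfkbib, the gene of IkB-beta, is held to be a slower, less inducible inhibitor, and its 3 probes stood close to 0. The brightest gave 3851 in the GnRH array and 3985 in the vehicle array (0.05 ± 0.20). The second gave 1253 in the GnRH array and 1197 in the vehicle array (0.16 ± 0.20), and the dimmest 123 and 121 (0.12 ± 0.21). The 3 probes therefore ran the same way, each within its scanner error. The single-spot SDs at their brightness were 0.04, 0.06 and 0.15. The brightest and the second probe lay beyond this narrower gauge and the dimmest within it. The Nfkbib probes cover chromosome 7 between 29543270 and 29546647 (mm9). Nfkbie, the gene of IkB-epsilon, gave 607 in the GnRH array and 692 in the vehicle array. Its log2 difference was -0.10 ± 0.20, against a single-spot SD of 0.07, and it was the only measured member below 0. The spots around it had a median difference of -0.18, of the same sign and larger in size; the part of these surroundings in its value was not tested. Its probe lies on chromosome 17 at 45700000 to 45700059 (mm9). Its promoter window printed above holds a kB match and an AP-1 match.

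Tnfaip3 encodes A20, a ubiquitin-editing enzyme that shuts off signalling to the IkB kinase complex and is itself an NF-kB target. Its signal was 268 in the GnRH array and 216 in the vehicle array. The log2 difference was 0.41 ± 0.21, a 1.33-fold higher value, against a single-spot SD of 0.10. It ranged from 0.35 to 0.41 over all 14 settings and reached 1.5-fold under none. The spots around it had a median difference of -0.18, opposite in sign to its own. The probe lies on chromosome 10 at 18720776 to 18720835 (mm9, minus strand).

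The subunit genes were nearly level between the arrays. Nfkb1, which encodes the precursor of the NF-kB p50 subunit, had 252 in the GnRH array and 253 in the vehicle array on its brighter probe (0.09 ± 0.21). The single-spot SD at that brightness was 0.10. The other Nfkb1 probe was printed on 2 spots per array, with 113 and 126 in the GnRH array and 128 and 116 in the vehicle array. The spots of that probe thus differed by -0.08 and 0.22, opposite in sign, and their mean was 0.07 ± 0.15; this is a direct view of how far single spots of this brightness scatter. Nfkb2 encodes the precursor of the p52 subunit of the non-canonical pathway. It gave 1965 in the GnRH array and 1996 in the vehicle array (0.07 ± 0.20), against a single-spot SD of 0.05. Its promoter window printed above holds 3 kB matches, of which 2 overlap, beginning at -39 and -38.

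Relb, the gene of the partner of p52, had 3 probes. The brightest gave 1646 in the GnRH array and 1606 in the vehicle array (0.13 ± 0.20), and a probe that overlaps it gave 934 and 953 (0.07 ± 0.20). The third, about which the file gives an Ensembl transcript only, gave 169 in the GnRH array and 206 in the vehicle array (-0.19 ± 0.21). The Relb probes therefore disagreed in sign, and none differed by more than its scanner error. The single-spot SDs at their brightness were 0.05, 0.06 and 0.11, and each difference was larger in size than its own. As a mean over its probes Relb stood at 0.00. Rel, the gene of c-Rel, a subunit best known from lymphoid cells, gave 11.8 in the GnRH array and 14.9 in the vehicle array, not well above background in either, so no fold is given. The coordinates of its 60-nt probe cover only 15 bases (chromosome 11, 23641729 to 23641743, mm9).

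**Figure D3:**
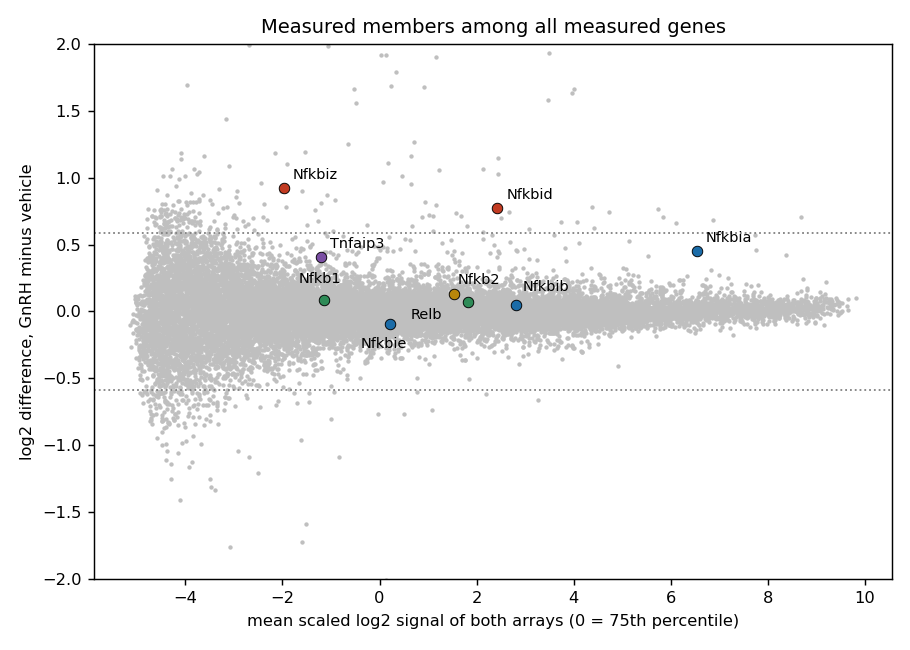
Log2 difference, GnRH minus vehicle (y axis), against the mean scaled log2 signal of both arrays (x axis, 0 at the 75th percentile) for all 21219 measured genes (grey; 37 lie outside the plotted range) and the 9 measured members (coloured by role). Nfkbiz and Nfkbid lie above the dotted line at 1.5-fold, and the subunit genes lie within the main band of genes.

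None of the 16 member spots was marked as an outlier or saturated. In 3 patches of the slide, adjacent spots of unrelated genes deviated in a block; the patches held 1.02% of the non-control spots and no member spot. Non-control spots well above background made up 56.9% on the GnRH array and 55.2% on the vehicle array. As a check of the treatment, Fos was at 6725 in the GnRH array and 114 in the vehicle array, and the receptor gene Gnrhr differed by -0.03 ± 0.20. Gnrh1, the defining gene of GnRH neurons, did not pass the background mark on either array (10.3 with GnRH and 7.94 with vehicle). By contrast Pitx1 (44001 and 48204), Nr5a1 (28614 and 33412) and Cga (69481 and 80508), genes of the pituitary gonadotrope, passed it on both. Of the marker list of hypothalamic GnRH neurons 9 of 11 genes were measured, all but Gnrh1 and Six6. That list also holds genes of neurons in general, such as Tubb3, Map2, Snap25, Syp and Eno2. Of the gonadotrope and pituitary list 5 of 11 were measured, namely Cga, Lhb, Nr5a1, Pitx1 and Gnrhr. Not measured were Fshb, Prl, Gh, Pomc, Tshb and Pou1f1, of which all but Fshb mark other pituitary cell types. These 2 shares thus cannot be set against each other. The cells are therefore named only as labelled. Immune cells express many members strongly. Of 9 microglia and macrophage markers 5 were measured, with summed signals of 6630 in the GnRH array and 7203 in the vehicle array, and of 8 lymphocyte markers 3 were measured, with sums of 4537 and 5151. The leukocyte gene Ptprc and the lymphocyte genes Ms4a1, Cd3d and Cd8a did not pass the background mark on both arrays, and no measured marker of either list differed 1.5-fold.

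Other genes of the pathway were taken from lists that leave out the members. Of 101 such genes on the array 77 were measured. Of these, 4 (5.19%) were at least 1.5-fold higher, against 1.19% of all measured genes. None was as much lower, against 0.881% of all measured genes, and the median log2 difference was 0.02. The lists were chosen with earlier results of these data known, so these shares are no independent evidence. Rela, the main transactivating subunit, had 29794 in the GnRH array and 31258 in the vehicle array (0.03 ± 0.20), and the nuclear IkB gene Bcl3 had 1528 and 1444 (0.18 ± 0.20). Genes of the signalling steps before NF-kB had medians close to 0, with single genes further out. No gene was past 1.5-fold among 18 measured genes of the IkB kinase complex and its upstream kinases (median 0.02), among 6 of the ubiquitin ligase that marks IkB for degradation (median 0.00), or among 17 receptors and adaptors of the TNF and interleukin-1 pathways (median 0.06). The furthest from 0 were Il1rap, the interleukin-1 receptor accessory protein gene, at 0.53 ± 0.29, the kinase gene Map3k8 at 0.38 ± 0.38 and the adaptor genes Traf5 at 0.37 ± 0.21 and Malt1 at -0.25 ± 0.20. Il1rap and Map3k8 were dim, with 47.7 and 24.8 in the GnRH array and 35.3 and 20.4 in the vehicle array. The adaptor gene Traf4 differed less, by 0.23 ± 0.06, but with a smaller error. Of the receptor and adaptor list the TNF receptor gene Tnfrsf1a was measured (985 in the GnRH array and 962 in the vehicle array), whereas Tnfrsf1b, Il1r1, Tlr3, Tlr4 and Cd40 were not well above background on either array.

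Among 16 measured partners of A20 and other ubiquitin-linked regulators, 14 lay below 0 (median -0.05), while 47.5% of all measured genes lay above 0. All of these differences but those of Tnip3, Otud7b and Zc3h12a were smaller than their scanner error. The only gene of this list past 1.5-fold was Zc3h12a, which encodes the RNase Regnase-1. It stood at 114 in the GnRH array and 75 in the vehicle array (0.70 ± 0.22). Of 33 listed inducible NF-kB target genes, 31 were on the array and 17 were measured. Among those not well above background on either array were Il1a, Il1b, Il6, Ptgs2, Ccl20 and Vcam1. Of the 17 measured, 3 (17.6%) were at least 1.5-fold higher, against 1.19% of all measured genes. The median of the 17 was 0.09. The chemokine gene Cxcl10 gave 1812 in the GnRH array and 932 in the vehicle array (1.05 ± 0.20). The stress-inducible survival gene Ier3 gave 1055 and 557 (1.02 ± 0.20), and the chemokine gene Cxcl1 gave 111 and 77.3 (0.61 ± 0.22). Cxcl1 and Zc3h12a were dimmer than Nfkbiz, and their values under other background steps were not examined. Tnf passed the background mark in the GnRH array alone, with 33.8 there and 11.1 in the vehicle array. Set against the dimmest probe that passed in the vehicle array, it was at least 2.21-fold higher, a bound that carries no error. The other 14 measured targets ran from Tnfaip2 at -0.31 ± 0.29 to the stress-response gene Gadd45b at 0.44 ± 0.20, with the cytokine genes Lif at 0.40 ± 0.28 and Csf1 at 0.26 ± 0.06, and Icam1 (0.02), Irf1 (0.07) and Sod2 (0.02) near 0. Of 7 genes known to depend on IkB-zeta in immune cells, 2 were measured, Lcn2 at 0.09 and Ccl2 at 0.16, and the other 5, among them Il6 and Csf3, were not well above background on either array.

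**Figure D4:**
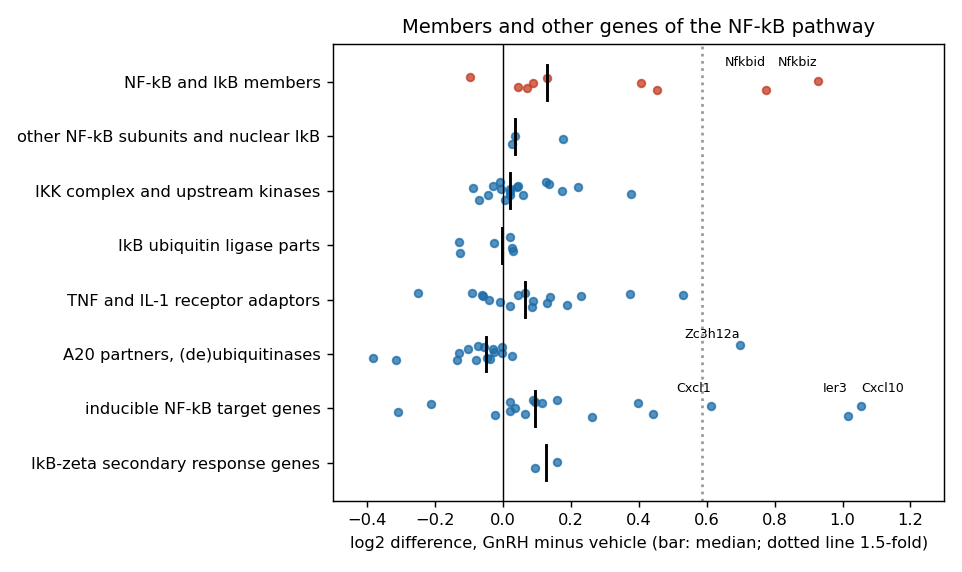
Log2 difference, GnRH minus vehicle (x axis), of the measured members (red) and of the measured genes of 7 further pathway lists (blue); bars are medians and the dotted line marks 1.5-fold. The 2 members and the 4 further genes past that line are named, and the lists of kinases, ligase parts and adaptors have none.

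The genes most like Nfkbiz were taken as the 3 nearest in mean signal and log2 difference over these 2 arrays. They were Wdcp (1.10 ± 0.21), the adrenomedullin gene Adm (0.54 ± 0.21) and Ttc39b (0.80 ± 0.22). The spots of Wdcp and Ttc39b lay inside the 3 patches of deviating spots, so Adm was the only one outside them.

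The differences of the members depended little on the processing. Over the main setting and 13 alternatives of scaling, background correction, filter and probe rule, Nfkbia ran from 0.42 to 0.46, Nfkbib from 0.02 to 0.12 and Nfkbie from -0.12 to -0.05. Nfkb1 ran from 0.06 to 0.10, Nfkb2 from 0.04 to 0.08 and Relb from 0.00 to 0.14. Nfkbiz was the exception, from 0.63 to 0.93, with both low values coming from the changed background step.

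**Figure D5:**
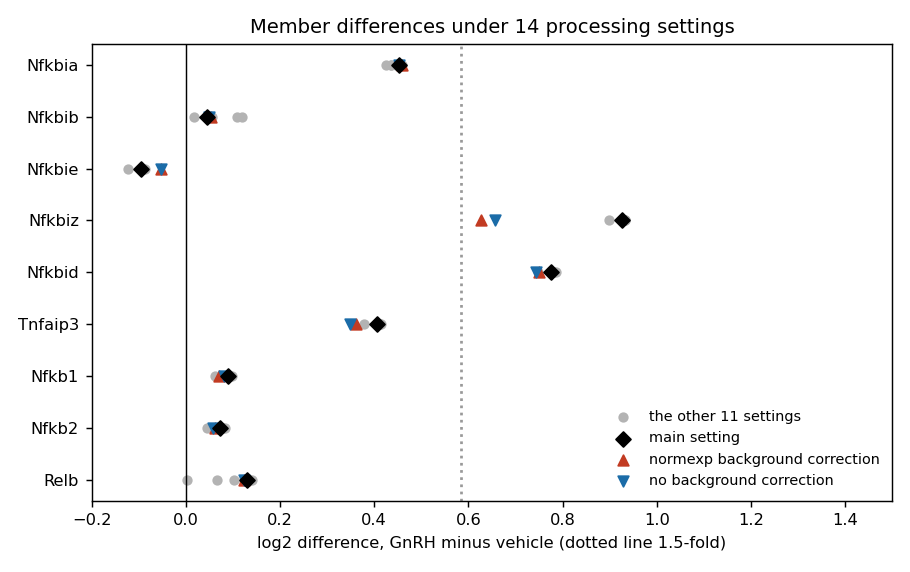
Log2 difference, GnRH minus vehicle (x axis), of each measured member under 14 processing settings, with the main setting as black diamonds and the background-correction alternatives as triangles; the dotted line marks 1.5-fold. Nfkbiz and Nfkbid stay right of that line under all 14 settings, and Nfkbia and Tnfaip3 stay left of it.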

How the data were processed

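The deposited scanner files give 1 linear intensity per spot. Per the file headers, Feature Extraction 10.7.1.1 subtracted background, detrended each array and gave each signal an error; 9.5.1.1 is the version in the submitters' processing notes. The deposited table of the authors' processed values, also linear intensity, had column medians of 28.44 for both groups, and its log2 differences correlated at r = 0.998 with the scanner values across 29665 probes; its normalization is not given in the sources used here.

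Outlier spots (GnRH array 94, vehicle array 121) were left out, log2 processed signals of a probe's spots were averaged, and each array's 75th percentile (GnRH 541, vehicle 578) was subtracted. A probe passed the background mark of the software if 50% or more of its spots did. Each gene was read from the brightest probe that passed on both arrays. Of 55681 probes, 27235 took their symbol from RefSeq (GRCm38.p6, names only); members were matched by the file's name. An area was a patch of at least 4 spots whose neighbours within 2 rows and columns had a median log2 difference of 0.3 or more in size, widened by 2 spots. Bounds set a bright signal against the higher of the gene's own and the dimmest signal that passed on the other array (16.3 for the vehicle). The spot spread used 254 probes printed many times, whose kept spots all passed the background mark on both arrays. The kB motif and the CArG box were searched on both strands under their usual consensus.

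No test was made, since each group is 1 array. The members, lists, thresholds and alternatives were chosen with earlier results of these data known. Text names all members; of each further list up to 5 genes in each direction past 1.5-fold and bounds of at least 2-fold; the 3 genes most like the highest member; and Gnrh1, Gnrhr and Fos. Other genes named were chosen after their values were seen. The scaling steps were tested on simulated data with planted changes. The simulated noise was equal at all signal levels and background correction was not part of it, so dim spots were not tested. Tools were Python 3.11.15, statsmodels 0.14.6 (lowess) and limma 3.58.1 (normexp, offset 50).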

Additional observations from a re-analysis of the deposited data

How the results depend on the processing

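All 13 alternatives gave 2 members at least 1.5-fold higher, Nfkbiz and Nfkbid, with 0 at least 1.5-fold lower and 0 at least 2-fold higher. The members' median log2 difference ran from 0.10 to 0.14. Of 117 single member values under these alternatives, 0 changed sign and 2 moved by more than the scanner error: Nfkbiz, at 0.93, became 0.63 with normexp and 0.66 with no background correction. In the authors' deposited table Nfkbiz was at 0.93 and Nfkbid at 0.78. The share of all genes at least 1.5-fold higher moved more, from 1.19% to 0.405% with normexp, 0.5846% with the stricter filter, 5.47% with the looser background call and 7.56% with no filter. Signal over background limits dim genes: the single-spot SD was 0.21 over the probes nearest in signal to Rel and 0.04 over those nearest to Nfkbia. The probes behind the value of 0.21 had passed the background mark and Rel had not, so the spread at the signal of Rel itself is not known. The scanner error of Rel was 0.53. No paired analysis was possible because each group is 1 array.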

Other observations

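The letters of the kB motif were also set against the differences of all measured genes with a RefSeq promoter window, the members left out, as a description chosen after the members' windows were seen. Of 716 genes with a kB match, 12 were at least 1.5-fold higher in the GnRH array (1.68%), against 95 of 10847 genes without one (0.876%). Their median log2 differences were -0.0048 with a match and -0.0074 without. For the CArG box the counts were 8 of 200 genes with a match (4%) and 99 of 11363 without (0.871%). For the palindromic cAMP response element they were 8 of 400 with a match (2%) and 99 of 11163 without (0.887%). For AP-1 in the wide form TGANTCA they were 8 of 721 with a match (1.11%) and 99 of 10842 without (0.913%). Genes at least 1.5-fold lower made up 0.279% of those with a kB match and 0.433% of those without. The shares lower were 1% with and 0.414% without a CArG box, 0.5% and 0.421% for the cAMP response element, and 0.971% and 0.387% for AP-1. No test was made of these shares, and a gene can hold several motifs.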
